A study of Mus musculus with 24 samples.

Results

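The digits of wild-type C57BL/6 (B6) mice 14 days after surgical amputation were compared with unamputated B6 digits, which the labels call day 0. The comparison uses 6 of the 24 arrays of the series, 3 labelled biological replicates in each group, chosen by strain and day in the sample titles, and covers every gene the platform annotation names, 14807 in all. Both groups were 3 to 4 months old at sampling per the labels, and all were labelled wild-type. The labelled tissue is the second phalanx of both middle digits of the hindlimb, while a free-text note names the front part of that digit. Neither says how much of the stump was taken at day 14 or whether several animals were pooled. B6 digits at day 3 and day 7, with 3 arrays each, serve below to show what had changed between those days and day 14. The same series also holds MRL digits, which entered the fit for its spread and are not described here.

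An adult mouse digit cut through the second phalanx is known to heal by scarring, with bone repair at the stump, and does not regrow its tip. In bone repair, osteoclasts and matrix proteases remove damaged bone and cartilage, a cartilage template may form, and osteoblasts then lay down a collagen matrix that is mineralised as some of them become osteocytes. The skin over the digit closes the wound with a sheet of migrating keratinocytes and carries hair follicles, which cycle between growth and rest, and sebaceous glands.

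Values are log2 of the deposited intensity, so a step of 1 is a 2-fold change. Differences are day 14 minus day 0 with the standard error (SE) of limma, and "rose", "fell", "higher" and "lower" are used of genes with an adjusted p below 0.05 (limma, Benjamini-Hochberg over 15928 probe sets). Array medians were 171 to 180.9 at day 14 and 163.1 to 169.5 at day 0 in intensity, and every pair of arrays within these groups correlated at 0.9907 or above. The deposited table gives no detection call, so whether a gene at a low level lay above background is unknown, and a fold against a low level holds an unmeasured background. The Y-linked genes Kdm5d and Eif2s3y summed to an intensity of 20 to 21 in the arrays of both groups, and neither differed. The tissue is a mixture, and more or fewer cells of a type cannot be told apart from more or less RNA per cell.

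At day 14 single matrix protease, bone matrix, osteoclast and cytokine genes, among them Mmp13, Ibsp, Atp6v0d2 and Cxcl5, were many-fold above the unamputated digit, and most sebaceous gland and fat cell genes measured were lower. Of the 15928 probe sets tested, 5890 differed (37.0%), 3624 higher (22.8%) and 2266 lower (14.2%). At least 2-fold changes were far less even, with 580 probe sets higher (3.64%) and 65 lower (0.408%), together 4.05% of those tested. The split of all calls moved with the scaling of the arrays, being 61.5% higher as deposited, 51.4% after cyclic loess, 45.3% after median centring and 43.0% after quantile normalization. Counted by gene, 5557 of 14807 differed (37.5%), 3414 higher (23.1%) and 2143 lower (14.5%), and the median difference over all genes was -0.01. The arrays of both groups did not overlap for 7721 genes (52.1%), and these shares are the background for each group of genes below. Lower calls over all probe sets, 2266 as deposited, numbered 3234 after cyclic loess, 4008 after median centring and 4132 after quantile normalization. Counts of lower list members under the other scalings stand against these larger numbers.

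**Figure D1:**
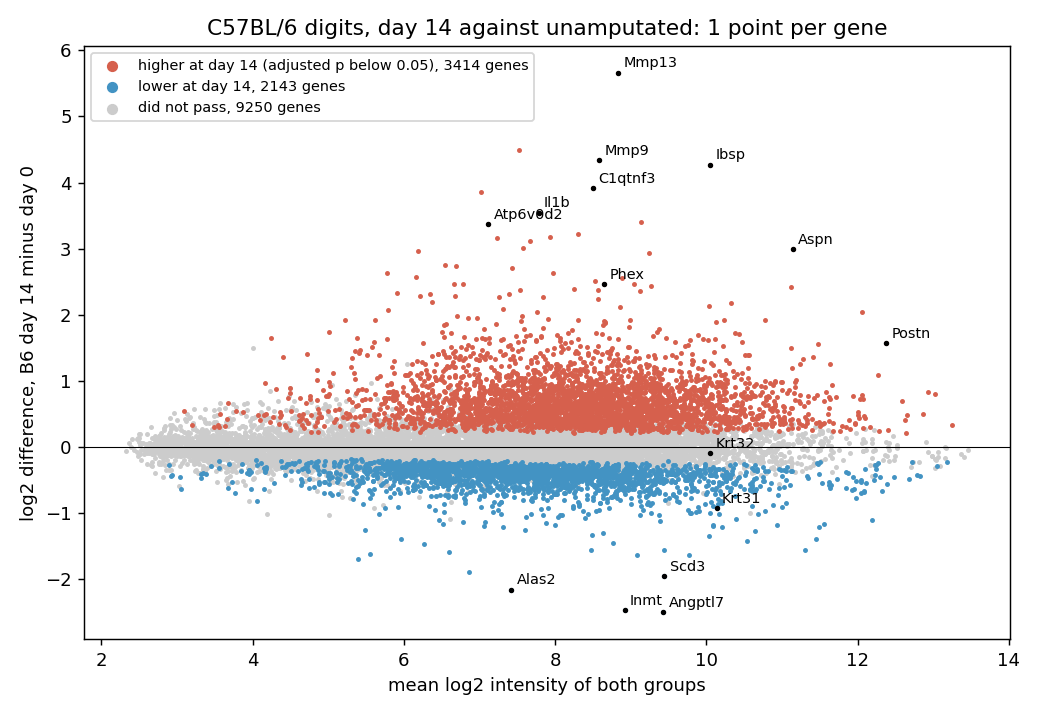
Each point is 1 gene, with its mean log2 intensity over both groups on the x axis and its log2 difference, B6 day 14 minus B6 day 0, on the y axis; red genes were higher, blue genes lower and grey genes did not pass. Mmp13 stands at 5.66, apart from all others, and Angptl7 and Inmt stand lowest.

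The largest rise was that of Mmp13, the collagenase that cuts fibrillar collagen in cartilage and bone. Its level was 12.05, 11.70 and 11.24 in the 3 day 14 arrays, against 6.29, 5.67 and 6.07 in the 3 day 0 arrays, a 50.5-fold difference of 5.66 ± 0.34 (SE, limma adjusted p = 3.04e-10). The groups were far from overlapping. Mmp9, the gelatinase of osteoclasts and neutrophils, was at 10.77, 10.50 and 10.98 at day 14 and at 6.65, 6.20 and 6.39 at day 0, a 20.2-fold difference. Mmp3, a stromelysin that activates other proteases, was at 8.90, 9.32 and 9.02 at day 14 and at 5.97, 5.82 and 6.40 at day 0, an 8.08-fold difference (adjusted p = 9.74e-09). Neither gene overlapped between the groups. Of the 18 metalloproteinases measured, 11 were higher, 4 lower and 3 did not pass, with a median difference of 0.86, and 1 to 3 were lower without single arrays. Mmp12, the macrophage elastase, rose by 1.91 ± 0.44 with a wide spread at day 0, where its arrays stood at 7.51, 5.76 and 6.49, and Mmp19 rose by 1.57.

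Inhibitors of these enzymes went both ways. Timp1, the secreted inhibitor of metalloproteinases induced in wounds, was at 10.78, 10.87 and 10.49 at day 14 and at 7.82, 7.40 and 8.08 at day 0, a difference of 2.94 ± 0.20. Among 15 inhibitors and members of the Adam and Adamts families, 9 were higher and 3 lower, with a median of 0.42. The 3 lower ones were all inhibitors, Timp3 (-0.36), Timp4 (-0.41) and the membrane-bound Reck (-0.43), while Timp2 rose by 0.39, and these 4 are named after their values were seen. Among the proteases, Adam12 rose by 1.86, Adamts12 by 1.18, Adamts16 by 0.74 and the aggrecanase Adamts5 by 0.70.

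The start-site windows of 3 of the highest genes are printed to show which of them carry the letters bound by AP-1 and Runx factors, families known to act on protease and bone genes. RefSeq windows (assembly GRCm38.p6, not the mm8 build of the arrays) run from 250 bases before to 50 bases after the start site, and 14 of 17 genes looked for, the 15 highest with Phex and Dmp1, had one. Capitals mark TGANTCA (AP-1, its own reverse complement) and TGTGGT or its reverse complement ACCACA (Runx), which do not overlap in these windows.
Mmp13, chr9:7272264-7272563, plus strand: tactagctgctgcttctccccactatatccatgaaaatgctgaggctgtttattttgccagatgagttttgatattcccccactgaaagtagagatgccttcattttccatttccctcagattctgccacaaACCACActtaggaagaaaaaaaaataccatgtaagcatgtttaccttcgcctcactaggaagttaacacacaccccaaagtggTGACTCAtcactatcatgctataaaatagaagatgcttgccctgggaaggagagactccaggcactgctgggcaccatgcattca
Mmp3, chr9:7445572-7445871, plus strand: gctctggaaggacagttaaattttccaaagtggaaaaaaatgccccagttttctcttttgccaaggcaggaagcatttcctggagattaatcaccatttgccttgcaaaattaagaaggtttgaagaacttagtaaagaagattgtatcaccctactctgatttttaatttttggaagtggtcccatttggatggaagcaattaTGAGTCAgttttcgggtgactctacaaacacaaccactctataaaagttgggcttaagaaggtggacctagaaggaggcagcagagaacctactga
Ibsp, chr5:104299037-104299336, plus strand: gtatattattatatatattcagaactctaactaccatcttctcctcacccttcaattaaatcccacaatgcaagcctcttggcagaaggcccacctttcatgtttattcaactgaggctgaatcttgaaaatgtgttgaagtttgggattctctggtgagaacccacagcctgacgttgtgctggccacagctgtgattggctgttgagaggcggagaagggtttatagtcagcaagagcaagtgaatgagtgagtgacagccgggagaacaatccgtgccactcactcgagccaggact
In the Mmp13 window the AP-1 letters began at position -35 and the Runx letters at -118 from the start site, and in that of Mmp3 the AP-1 letters began at -46. The Ibsp window held neither. AP-1 letters stood in the windows of 3 of the 14 genes (Mmp13, Mmp3 and Sprr2e) and in 7.81% of the 32851 windows of all genes, and Runx letters in those of 5 genes (Mmp13, C1qtnf3, S100a9, Ccl3 and Dmp1) and in 16.8% of all windows. A match describes the letters only.

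Bone matrix genes stood well above day 0. Ibsp, bone sialoprotein, which osteoblasts secrete as mineral first forms, was at 12.54, 12.27 and 11.73 at day 14 and at 7.76, 7.75 and 8.22 at day 0, a 19.3-fold difference of 4.27 ± 0.32 (adjusted p = 8.05e-09). Phex, a peptidase of osteoblasts and osteocytes needed for mineralisation, was at 10.45, 9.76 and 9.43 at day 14 and at 7.23, 7.40 and 7.63 at day 0 (5.52-fold, adjusted p = 5.11e-07). Dmp1, the osteocyte matrix protein that controls mineral and phosphate, was at 8.94, 8.43 and 8.05 at day 14 and at 6.53, 6.52 and 7.03 at day 0 (3.43-fold, adjusted p = 4.84e-05). All 3 genes were separate between the groups, and in each of them replicate 1 was the highest and replicate 3 the lowest of the day 14 arrays.

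Of 20 osteoblast and bone matrix genes measured, 12 were higher, 1 lower and 7 did not pass, with a median of 0.82, against 23.1% higher and 14.5% lower among all genes. Under the other scalings 12 to 13 were higher and 2 to 4 lower. Tnn, tenascin W of bone and periosteum, rose by 2.44 ± 0.23, the fibrillar collagen gene Col24a1 by 2.28 ± 0.23, Omd, osteomodulin, by 2.27 ± 0.37, and Postn, periostin, by 1.57 ± 0.09. Omd stood at 9.14, 8.50 and 7.55 at day 14 and reached 2.69 without replicate 3. The phosphate transporter Slc20a2 (-0.01 ± 0.10) and the pyrophosphate transporter Ank (-0.05) did not pass. The list summed to an intensity of 41806 to 46196 in the day 14 arrays and to 21096 to 22192 in the day 0 arrays.

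Among 10 osteocyte genes, 4 were higher, 1 lower and 5 did not pass, with a median of 0.18. Under the other scalings 4 were higher and 2 to 4 lower. Quantile normalization gave 4 in each direction and a median of 0.052. Pdpn, podoplanin of early osteocytes and also of wound stroma, rose by 1.67 ± 0.12, and Tnfrsf11b, osteoprotegerin, the decoy receptor that restrains osteoclasts, rose by 0.64. Sost, the osteocyte inhibitor of bone formation, was at 7.52, 7.20 and 7.36 at day 14 and at 7.76, 7.89 and 8.08 at day 0. Its fall of -0.55 (adjusted p = 0.0301) did not pass without replicate 2 or 3 of either group, with adjusted p from 0.0603 to 0.117.

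**Figure D2:**
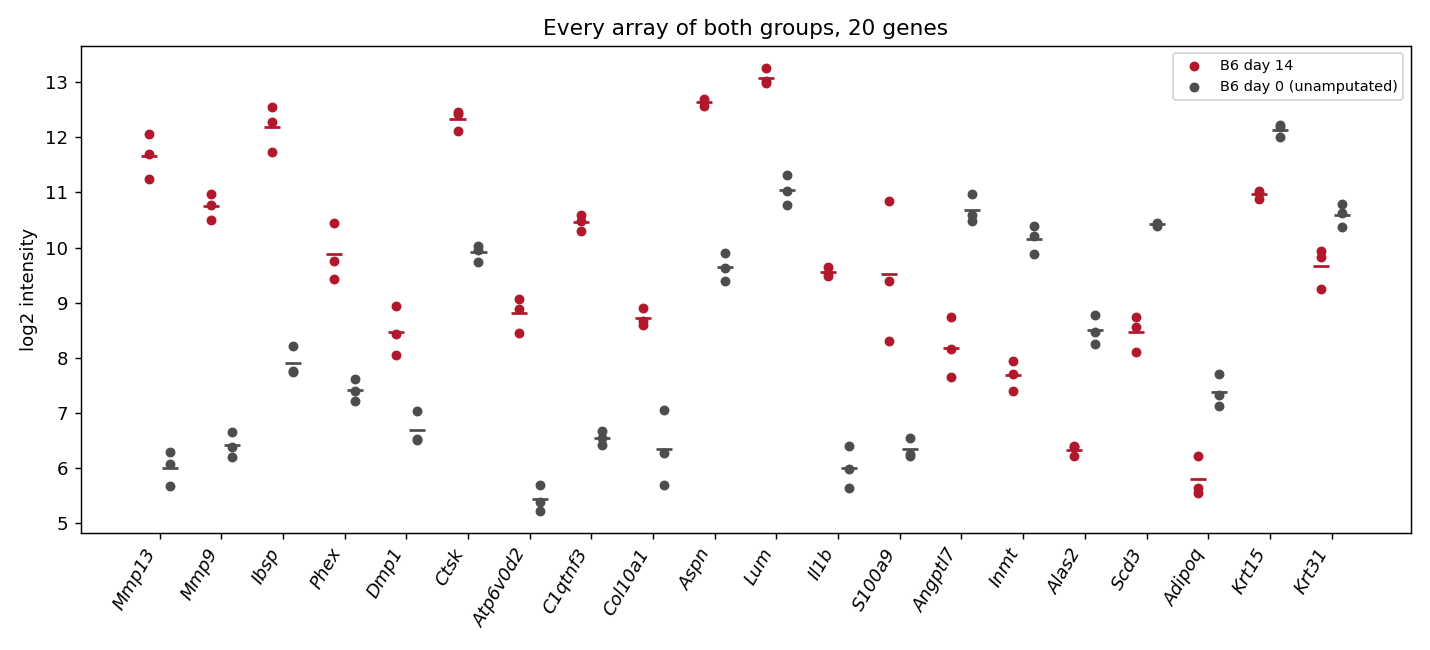
Log2 intensity (y axis) of 20 genes in each of the 3 B6 day 14 arrays (red, left of each pair) and the 3 B6 day 0 arrays (grey, right), with a line at each group mean. Mmp13, Ibsp, C1qtnf3 and Aspn are widely separated between the groups, while S100a9 spreads from 8.30 to 10.84 within day 14.

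Genes of the osteoclast, the cell that resorbs bone, were higher in 13 of 18 members and lower in 0, with a median of 0.92. Atp6v0d2, a subunit of the proton pump that acidifies the resorption pit, was at 9.07, 8.46 and 8.89 at day 14 and at 5.38, 5.69 and 5.23 at day 0 (10.4-fold, adjusted p = 7e-09). Ctsk, the collagen-cutting protease cathepsin K, was at 12.42, 12.12 and 12.45 at day 14 and at 9.96, 9.75 and 10.03 at day 0 (5.34-fold). The groups were separate for both genes. Acp5, tartrate-resistant acid phosphatase, rose by 1.72 ± 0.17, and Car2, the carbonic anhydrase that supplies protons, by 2.52 ± 0.30. Tnfsf11, the ligand RANKL that drives osteoclast formation (0.12), and the transcription factor Nfatc1 (-0.16) did not pass. Mmp9 is also in the neutrophil list and Car2 in the erythroid list. The list summed to 13300 to 15085 at day 14 and to 4375 to 4704 at day 0 in intensity.

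Cartilage genes split. C1qtnf3, a secreted protein of growing cartilage, was at 10.30, 10.49 and 10.59 at day 14 and at 6.42, 6.67 and 6.54 at day 0, a 15.1-fold difference of 3.91 ± 0.19. Col10a1, the collagen of hypertrophic cartilage, was at 8.66, 8.91 and 8.59 at day 14 and at 6.28, 5.70 and 7.05 at day 0, a difference of 2.38 ± 0.36. Acan, the core proteoglycan aggrecan, rose by 1.80 ± 0.23 and the fibril collagen Col11a1 by 1.71 ± 0.19. Clec3a, a lectin of mature cartilage, went the other way, at 8.45, 8.54 and 7.81 at day 14 and 10.41, 9.70 and 9.59 at day 0 (-1.63 ± 0.35). Of 29 cartilage genes, 12 were higher, 5 lower and 12 did not pass, with a median of 0.12. Leaving out single arrays left 8 to 13 of them higher. Prg4, lubricin of joint surfaces, was at 10.07 to 10.18 at day 14 and 10.67 to 11.42 at day 0, with an adjusted p of 0.15.

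Collagens were higher in part of their list, and the enzymes that modify them in most of theirs. Among 31 collagens, 15 were higher, 3 lower and 13 did not pass, with a median of 0.30 and with 2 to 7 lower under the other scalings. Col12a1, a collagen of stressed and healing tissue, rose by 1.91 ± 0.11, Col5a2 by 1.63 ± 0.13, Col14a1 by 1.52 ± 0.14 and Col6a3 by 1.39 ± 0.14. The basement membrane chains Col4a1 (0.30) and Col4a2 (0.20) did not pass. Of 29 genes of collagen modification and secretion, 23 were higher, 2 lower and 4 did not pass (median 0.71). Plod2, the lysyl hydroxylase that sets the stable crosslinks of bone and scar collagen, was at 9.72, 9.85 and 9.47 at day 14 and at 7.50, 7.33 and 7.51 at day 0 (4.70-fold). The folding enzymes Fkbp7 and Fkbp14 rose by 1.92 and 1.90, Kdelr3, which returns proteins to the endoplasmic reticulum, by 1.88, and the prolyl hydroxylase subunit P4ha3 by 1.42. With single arrays left out, 20 to 22 of the 29 were higher.

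Small leucine-rich proteoglycans, which bind and space collagen fibrils, were higher in 10 of 15 members and lower in 1 (median 0.78). Aspn, asporin, was at 12.69, 12.64 and 12.58 at day 14 and at 9.63, 9.91 and 9.40 at day 0 (7.93-fold, adjusted p = 2.8e-09). Lum, lumican, was at 13.26, 12.98 and 13.01 at day 14 and at 11.03, 11.32 and 10.77 at day 0 (4.13-fold). Both were far from overlap. Ogn rose by 2.37 and Kera, keratocan, by 1.96, while Prelp (-0.32) and Podn (-0.29) did not pass. Wound matricellular genes, secreted proteins that signal from the matrix, were higher in 21 of 28 members and lower in 1 (median 0.77). Tnc, tenascin C, rose by 2.13 ± 0.11, Fap, a protease of activated fibroblasts, by 2.05 ± 0.20, and Vcan, the proteoglycan versican, by 1.65 ± 0.11. Tgfbi (0.24) and Mfap4 (0.42) did not pass, though Tgfbi did without day 14 replicate 1 (0.34, adjusted p = 0.0233).

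Genes of quiet connective tissue went both ways. Of 29 resting stroma genes, 11 were lower, 6 higher and 12 did not pass. Inmt, a methyltransferase, was at 7.71, 7.39 and 7.94 at day 14 and at 9.88, 10.20 and 10.39 at day 0, and fell by 2.48 (adjusted p = 1.88e-06). The alcohol dehydrogenase gene Adh1 fell by 1.21 and the actin-severing protein gene Gsn by 1.11, while Sfrp4, a secreted Wnt binder, rose by 1.53 and the microfibril gene Mfap5 by 1.39. Of 14 tendon and ligament genes, 6 were higher and 4 lower. The lowest of all genes was Angptl7, an angiopoietin-like protein placed in the tendon list, at 7.65, 8.73 and 8.15 at day 14 and 10.98, 10.59 and 10.48 at day 0 (5.67-fold lower, adjusted p = 3.54e-06). Thbs4, a thrombospondin of tendon, rose by 1.43, and Abi3bp by 1.02.

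**Figure D3:**
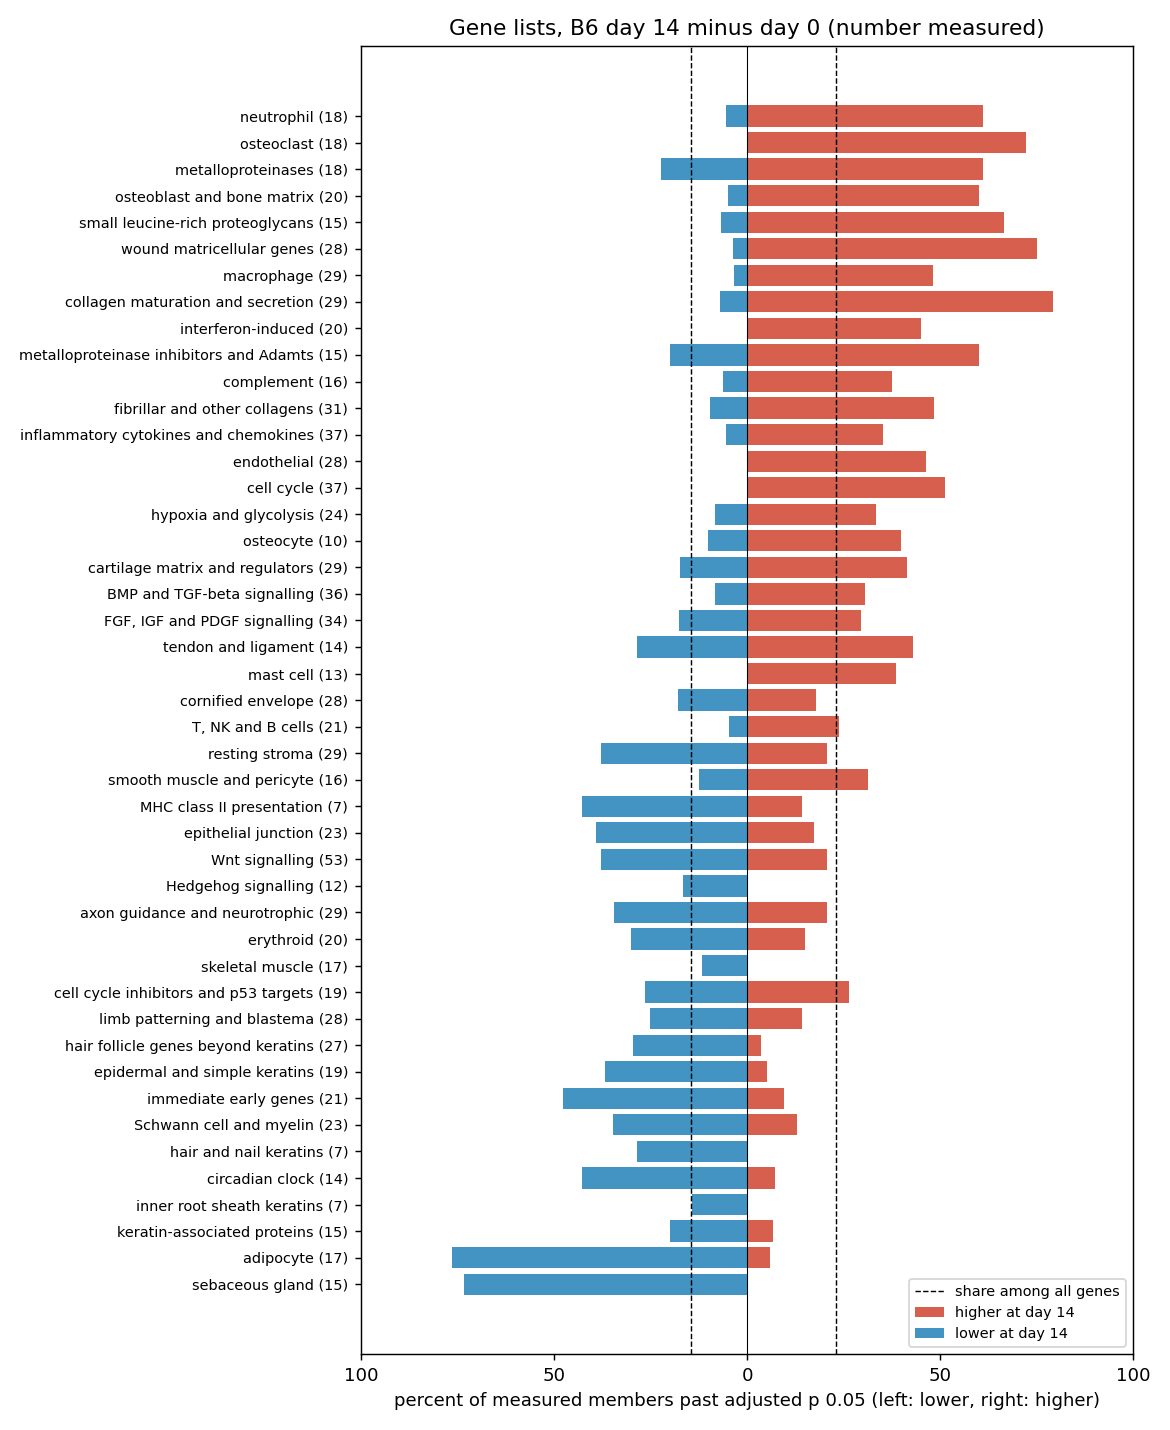
Each row is a list of genes with the number measured; red bars give the percent of members higher at B6 day 14 than at B6 day 0 and blue bars, to the left, the percent lower, with dashed lines at the shares among all genes, 23.1 and 14.5 percent. Rows are ordered by their median difference, with neutrophil genes on top and sebaceous gland genes at the bottom.

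Part of the inflammatory genes were still raised 14 days after the cut. Cxcl5, a neutrophil chemokine, was at 9.13, 10.22 and 9.94 at day 14 and at 5.44, 4.91 and 5.47 at day 0 (22.4-fold, adjusted p = 1.1e-08). Il1b, interleukin 1 beta, was at 9.54, 9.49 and 9.64 at day 14 and at 5.99, 5.64 and 6.40 at day 0 (11.7-fold, adjusted p = 1.76e-07). The Il1b arrays did not overlap, with an SD of 0.08 at day 14 and 0.38 at day 0. Ccl3, a chemokine for monocytes, rose by 3.16 ± 0.36, Cxcl2 by 2.71 ± 0.44 and the acute phase gene Saa3 by 3.11 ± 0.42. Yet of 37 cytokines and chemokines only 13 were higher and 2 lower, with 22 not passing, among them the antagonist Il1rn (0.22) and Cxcl12 (0.16). The 13 became 9 to 13 on leaving out single arrays.

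Myeloid genes rose in part of their lists. Clec4d, a lectin receptor of monocytes and neutrophils, was at 8.74, 8.93 and 9.19 at day 14 and at 4.94, 5.13 and 5.23 at day 0 (14.4-fold). Its relatives Clec4e, Clec4n and Clec7a rose by 2.75, 2.38 and 1.98. Of 29 macrophage genes, 14 were higher and 1 lower, while Csf1r, the growth factor receptor that macrophages carry, was at 10.02, 9.97 and 10.06 at day 14 and 9.90, 9.68 and 9.93 at day 0 (0.18, adjusted p = 0.181). The complement gene C1qb, a marker of resident macrophages, lay at the threshold (0.37, adjusted p = 0.0503). It passed as higher without day 0 replicate 3 (0.48, adjusted p = 0.0252). The macrophage list summed to 14863 to 15327 at day 14 and to 8502 to 10101 at day 0 in intensity. Of 18 neutrophil genes, 11 were higher and 1 lower (median 1.10), and Trem1, an activating receptor, rose by 2.07. Elane (-0.19) and Prtn3 (-0.12), granule proteases made in marrow precursors, did not pass.

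Other immune lists differed among themselves. Among 20 interferon-induced genes, 9 were higher and 0 lower, led by Ifit1 (1.92 ± 0.40), Gbp2 (1.33), Ifit2 (1.32), Gbp3 (1.22) and Rtp4 (1.21). Of 7 genes of MHC class II presentation, the protease Ctss rose by 1.25 and 3 fell, Cd74, the invariant chain, by 0.88, H2-Ab1 by 0.52 and H2-DMa by 0.49. The falls of both H2 genes did not pass without day 0 replicate 1 (adjusted p = 0.0645 and 0.0626) or day 14 replicate 1 (0.102 and 0.0911), and that of H2-Ab1 also without day 0 replicate 3 (0.0794). Of 13 mast cell genes, 5 were higher, with Fcer1a, the IgE receptor chain, at 7.45, 7.23 and 7.39 at day 14 and 5.18, 5.20 and 4.83 at day 0, and Cpa3 higher by 0.86, while the receptor Kit (-0.19) did not pass. Of 21 T, NK and B cell genes, 5 were higher and 1 lower, a share near that of all genes, with Il7r at 1.01 and Gzmb at 0.67. Complement genes were higher in 6 of 16, with the receptor C3ar1 at 1.47.

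Vessel and proliferation genes were higher in many of their members and lower in none of those measured, as deposited. Of 28 endothelial genes, 13 were higher and 0 lower (median 0.28). Angpt1, a ligand that steadies vessels, rose by 1.65 ± 0.22, the apelin receptor Aplnr by 1.49, the sialomucin Emcn of bone and other small vessels by 1.33, the factor Erg by 0.89 and Angpt2 by 0.81. Plvap (0.06) and Eng (0.22) did not pass. Of 37 cell cycle genes, 19 were higher and 0 lower (median 0.26), and Mki67, the proliferation marker, was at 9.48, 9.28 and 9.31 at day 14 and 8.19, 8.38 and 7.80 at day 0. Bub1 rose by 1.36, the spindle motor Kif11 by 1.20, Ccne2 by 1.06 and Prc1 by 0.98, while the cyclins Ccnd1 (0.13) and Ccnd2 (-0.08) did not pass. Of 16 smooth muscle and pericyte genes, 5 were higher (31.2%) and 2 lower (12.5%), against 23.1% and 14.5% of all genes. Their median was -0.07, and 4 to 6 were lower under the other scalings. Among the members with the largest differences that passed, the pericyte genes Abcc9, Mcam and Pdgfrb rose by 0.69, 0.65 and 0.61. The contractile gene Cnn1 fell by 0.65. Another contractile gene, Acta2, smooth muscle actin, went the other way but did not pass (0.345, limma adjusted p = 0.0686). It passed as higher without day 14 replicate 1 (0.428, adjusted p = 0.0488) or replicate 3 (0.448, adjusted p = 0.0374). In the same list Rgs5 rose by 0.73, and its other probe set gave 2.09.

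Hair genes stood near their unamputated level at day 14, although single members were lower. Of 7 hair and nail keratins measured, 2 were lower and 5 did not pass, with a median of -0.29. Krt31, a keratin of the hair cortex, was at 9.25, 9.94 and 9.83 at day 14 and at 10.79, 10.38 and 10.63 at day 0 (-0.93 ± 0.19, adjusted p = 0.000809). Krt32, of the hair cuticle, was at 9.96, 9.99 and 10.05 at day 14 and at 10.21, 9.92 and 10.14 at day 0, and its arrays overlapped (adjusted p = 0.709). Krt34 (-0.64) did not pass without either day 0 replicate 1 or 3 or day 14 replicate 1 or 3. Of 7 keratins in the list of the inner root sheath, the layer that guides the growing hair, only Krt75 was lower (-0.42). It did not pass without replicate 1 or 3 of either group (adjusted p 0.102 to 0.12). Under each of the other scalings 2 of the 7 were lower. Krt71 (-0.23), Krt25 (-0.20) and Krt35 of the cortex (-0.35) did not pass.

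Keratin-associated proteins, which crosslink hair keratins, were lower in 3 of 15 and higher in 1, with a median of -0.33. Krtap6-2 was at 9.03, 8.54 and 9.28 at day 14 and at 10.42, 10.40 and 10.95 at day 0 (-1.64 ± 0.47), Krtap21-1 fell by 1.45 and Krtap4-13 by 1.25. Krtap13, at 6.27, 4.90 and 4.00 at day 14 and 3.88, 3.22 and 3.16 at day 0, was higher by 1.64, a call lost without day 14 replicate 1 (1.04, adjusted p = 0.173), day 0 replicate 2 or day 0 replicate 3. Krtap5-4 (-0.07) and Krtap13-1 (-0.56) did not pass. Of 27 other hair follicle genes, 8 were lower and 1 higher, with 3 to 8 lower without single arrays. Under the other scalings 13 to 16 were lower, where lower calls over all probe sets rose as well. Foxn1, a factor of hair shaft differentiation, fell by 0.58 and Gata3, of the inner root sheath, by 0.42. Gprc5d (-0.82) and Padi3 (-0.46), genes of the hair-forming keratinocytes, did not pass without day 0 replicate 1, day 0 replicate 3 or day 14 replicate 1, and Gprc5d also without day 14 replicate 3.

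**Figure D4:**
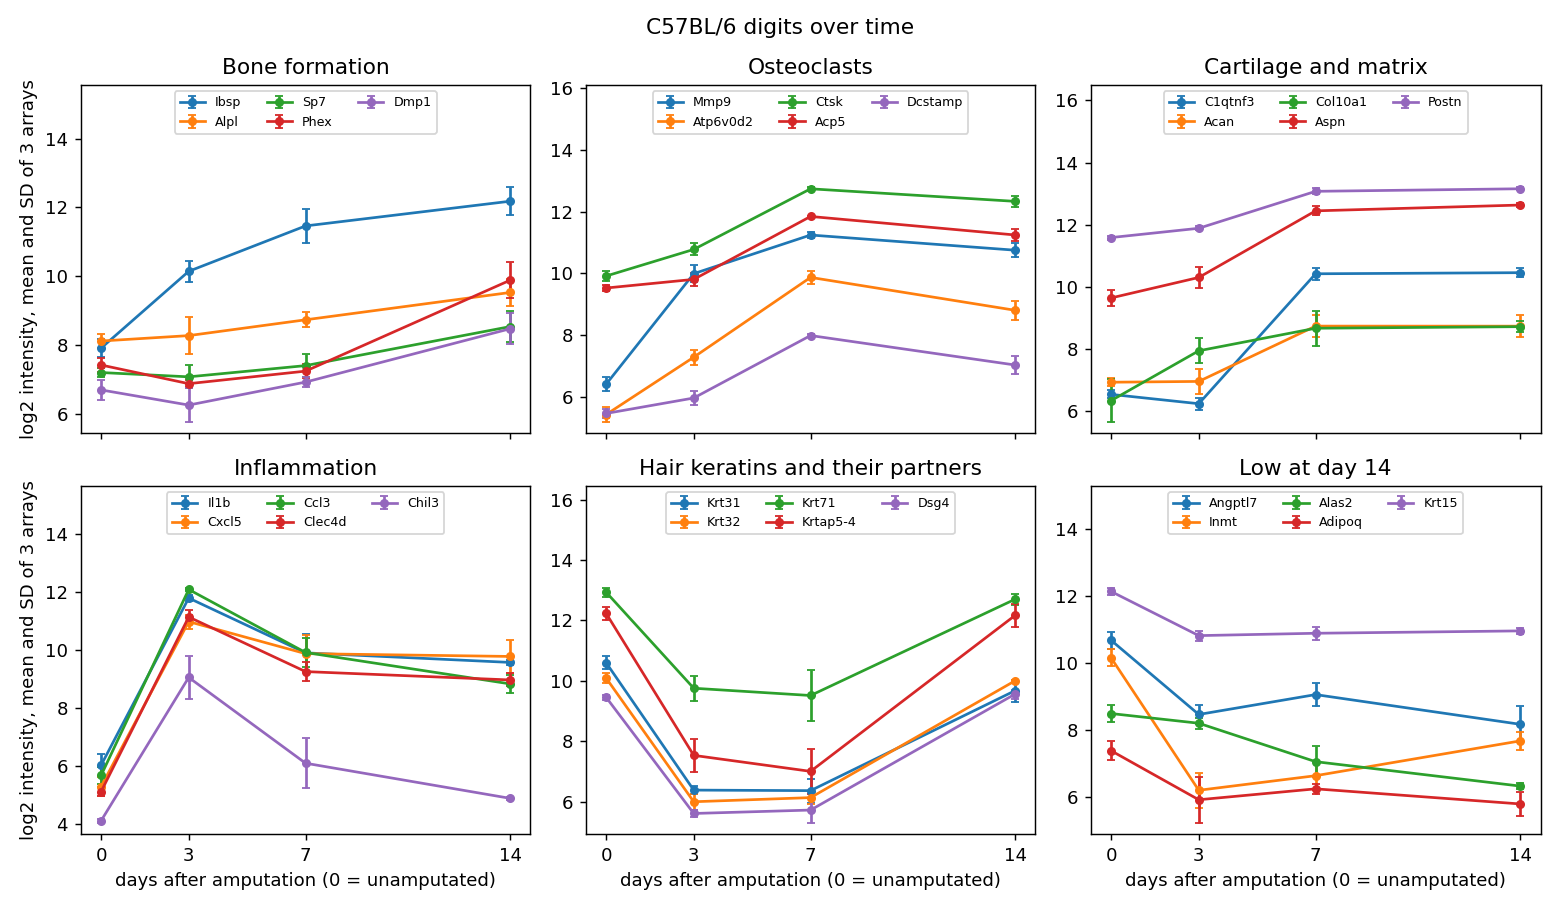
Mean log2 intensity (y axis) with the SD of 3 arrays in B6 digits on days 0, 3, 7 and 14 (x axis), for 5 genes in each of 6 panels. Phex and Dmp1 stay near their day 0 level until day 7 and stand high at day 14, and osteoclast genes are highest at day 7. Hair keratins are low on days 3 and 7 and near day 0 again at day 14, except Krt31, which is still lower than at day 0.

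In the epidermis the abundant keratins of the basal and upper layers showed small differences that did not pass with all arrays. These were Krt5 (-0.23), Krt14 (-0.15), Krt1 (-0.01) and Krt10 (-0.05). Krt5 passed as lower without day 14 replicate 2 (-0.36, adjusted p = 0.00567). Krt15, a keratin of basal cells and follicle stem cells, was at 10.88, 10.99 and 11.03 at day 14 and at 12.01, 12.18 and 12.22 at day 0, a fall of -1.18 ± 0.12 with no overlap. The simple keratins Krt18 and Krt19 fell by 0.74 and 0.73, Krt77 of the sweat duct by 0.72 and Krt79 by 0.66, and Krt17 by 0.42. Krt19 did not pass without day 0 replicate 3 (adjusted p = 0.0535), nor did Krt17 without replicate 1 or 3 of either group. Of 19 epidermal and simple keratins, 7 were lower and 1 higher, with 4 to 8 lower without single arrays and 11 to 13 under the other scalings. Among 23 junction genes, 9 were lower and 4 higher, with 1 to 4 higher without single arrays. Those lower included parts of the anchor to the basement membrane, Col17a1 (-0.72) and Itgb4 (-0.72), and of the adherens junction and desmosome, Cdh1 (-0.64) and Jup (-0.55). The desmosome gene Dsc2 was higher by 0.75 (adjusted p = 0.0295). That call was lost without replicate 1 or 2 of either group (adjusted p 0.0611 to 0.221).

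Wound epidermis genes varied among the 3 day 14 digits. Krt16, the keratin of wounded and activated epidermis, was at 11.05, 11.62 and 8.47 at day 14 and at 8.82, 8.69 and 8.86 at day 0. Replicate 3 lay below all 3 day 0 arrays, and the difference of 1.59 (adjusted p = 0.0365) was 2.54 without replicate 3 and 0.97 without replicate 2, where it did not pass (adjusted p = 0.225). It also failed to pass without day 14 replicate 1 (adjusted p = 0.146) or any single day 0 array (0.0701 to 0.0856). Sprr2e, a small proline-rich protein of the cornified envelope, was at 11.08, 10.30 and 8.38 at day 14 and at 6.96, 6.97 and 6.16 at day 0. Sprr2k was at 8.31, 8.60 and 5.53 at day 14 and at 5.36, 5.15 and 5.32 at day 0, and Rptn, repetin, was at 11.48, 11.87 and 9.87 at day 14 and at 9.43, 9.18 and 8.94 at day 0. In these 3 genes, too, replicate 3 was the lowest, though above the day 0 arrays. Differences were 3.22, 2.20 and 1.90 for Sprr2e, Sprr2k and Rptn with all arrays and 3.99, 3.17 and 2.50 without that replicate. Of 28 cornified envelope genes, 5 were higher and 5 lower, and without single arrays 4 to 8 were higher and 3 to 9 lower, and under the other scalings 9 to 11 were lower. Lor, loricrin, the main protein of the envelope, was at -0.29 and did not pass, but it did without day 14 replicate 2 (-0.38, adjusted p = 0.0271).

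The same array was lowest for S100a8, S100a9 and Ngp of the neutrophil list, but not for its whole list, since Mmp9 was highest there. S100a8 and S100a9 code for the subunits of calprotectin, which neutrophils carry and wounded keratinocytes make as well. S100a9 was at 10.84, 9.40 and 8.30 at day 14 and at 6.55, 6.22 and 6.26 at day 0, a difference of 3.17, and of 3.78 without replicate 3 and 2.51 without replicate 1. S100a8 was at 11.62, 11.16 and 9.74 at day 14 and at 7.59, 7.32 and 7.41 at day 0. Ngp, a neutrophil granule protein, was at 8.71, 6.88 and 5.69 at day 14 and at 4.55, 4.35 and 4.49 at day 0, with a difference of 2.63, and of 3.33 without replicate 3 and 1.83 without replicate 1. Across all genes, 49 had an SD above 0.75 among the day 14 arrays, and replicate 3 was the lowest in 33 of them. The number was 23 at day 0, 80 at day 7 and 68 at day 3, so such spread was not particular to day 14. The 49 also held genes at low levels, such as the olfactory receptor genes Olfr610 and Olfr691. The neutrophil list summed to 6763 to 11499 at day 14 and to 2408 to 3005 at day 0 in intensity. The labels do not state which part of the stump each sample held, and its part in this spread was not tested.

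**Figure D5:**
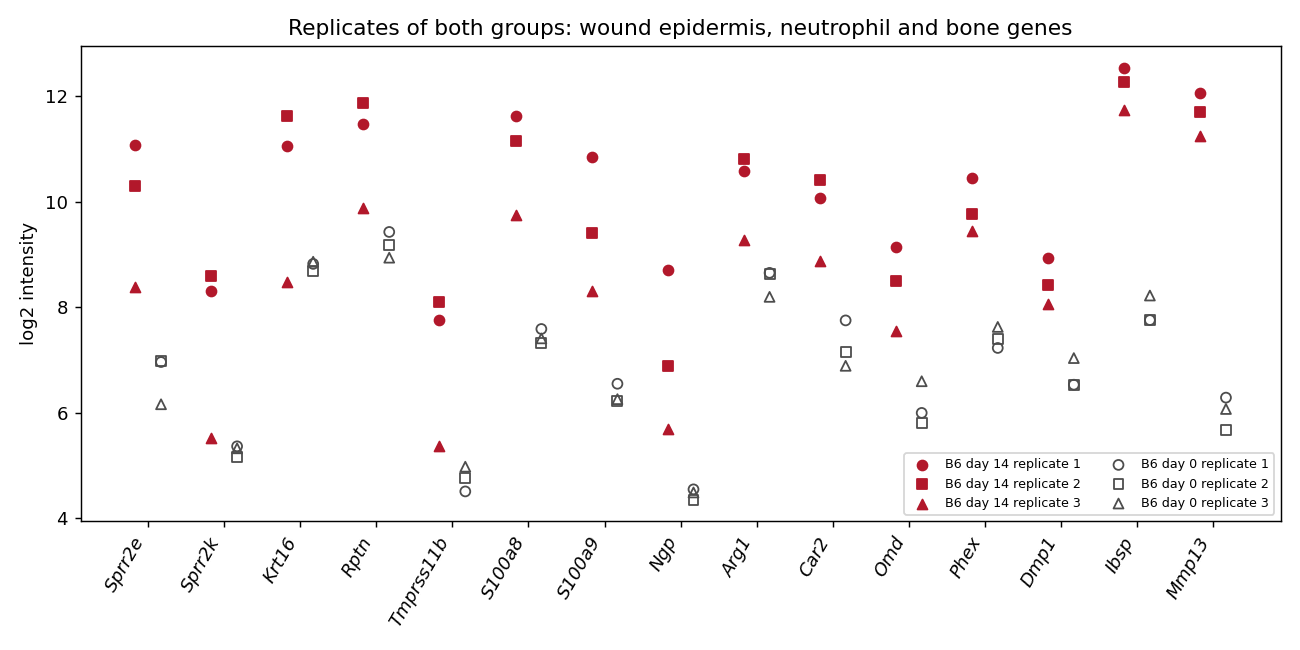
Log2 intensity (y axis) of 15 genes in each array of B6 day 14 (filled, left) and B6 day 0 (open, right), with the replicate given by the marker shape. Replicate 3 of day 14 (filled triangle) is lowest for Sprr2e, Sprr2k, Krt16 (8.47), Rptn, S100a8, S100a9 and Ngp, and the bone genes on the right are lowest in it as well but stay far above day 0.

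Gland and fat genes fell in most members. Of 15 sebaceous gland genes, 11 were lower and 0 higher (median -0.62), with 10 to 12 lower without single arrays. Scd3, a fatty acid desaturase of the sebaceous gland, was at 8.10, 8.74 and 8.55 at day 14 and at 10.43, 10.39 and 10.44 at day 0 (3.89-fold lower, adjusted p = 2.85e-07). Every day 14 array lay below every day 0 array. Cidea, a lipid droplet protein, fell by 0.92, the elongase Elovl3 by 0.86, Ldhb by 0.81 and Cyp2e1 by 0.70, and Elovl5 (0.03) and Far1 (0.32) did not pass. The other probe set of Ldhb gave -0.685 and did not pass (limma adjusted p = 0.13). Of 17 adipocyte genes, 13 were lower and 1 higher (median -0.60), and 13 were lower without each single array. Adipoq, the hormone adiponectin, was at 6.22, 5.54 and 5.65 at day 14 and at 7.32, 7.14 and 7.71 at day 0, a fall of -1.59 ± 0.30. The glycerol phosphate enzyme Gpd1 fell by 1.26, the lipid droplet genes Plin4 and Cidec by 1.18 and 0.99, and the hormone Retn by 1.13. Lpl, lipoprotein lipase, did not pass (0.00).

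Nerve, muscle and blood cell lists were mixed. Of 23 Schwann cell and myelin genes, 8 were lower and 3 higher, and 9 to 14 were lower under the other scalings. They held Fa2h, which makes myelin lipids and is also used in skin, at -0.97, the dystrophin relative Drp2 at -0.71 and the receptor Erbb3 at -0.50, against Gjc3 at 0.73 and Ugt8a at 0.56. Of 17 skeletal muscle genes, 2 were lower (Mylpf and Myod1), or 2 to 9 under the other scalings, and as deposited both calls were lost without replicate 2 or 3 of day 14 or replicate 3 of day 0. The list summed to 1179 to 1241 at day 14 and to 1319 to 1452 at day 0. Alas2, the heme synthesis enzyme of red cell precursors, was at 6.38, 6.23 and 6.40 at day 14 and at 8.25, 8.78 and 8.46 at day 0 (4.48-fold lower). Of 20 erythroid genes 6 were lower and 3 higher, and after Alas2 the lowest that passed was the factor Tal1 at -0.44.

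Signalling genes were mixed. Of 53 Wnt pathway genes, 20 were lower and 11 higher, with 11 to 17 lower without single arrays and 21 to 25 under the other scalings. The higher ones were led by secreted binders and modulators, Sfrp2 at 10.15, 10.47 and 10.22 at day 14 and 7.97, 7.73 and 7.75 at day 0 (2.47 ± 0.22), Sfrp4 (1.53) and Dkk3 (1.24). Wls, which carries Wnt proteins out of the cell, rose by 0.98, and the ligand Wnt5a by 0.77. Of 36 genes of BMP and TGF-beta signalling, 11 were higher (30.6%) and 3 lower (8.33%), against 23.1% and 14.5% of all genes. Their median was 0.03, and 3 to 9 were lower under the other scalings. The largest differences that passed were those of the follistatin-like Fstl1 (1.56), the receptor Tgfbr1 (1.12), the activin subunit Inhba (1.11), Bmp5 (1.10) and the BMP antagonist Chrdl1 (0.96). Of 34 genes of FGF, IGF and PDGF signalling, 10 were higher (29.4%) and 6 lower (17.6%), shares near those of all genes. Their median was 0.03, with 1 to 3 lower without single arrays and 6 to 11 under the other scalings. The largest differences that passed were rises. H19, an imprinted RNA, rose by 1.92 ± 0.22, the growth factors Pdgfd by 1.68, Pdgfc by 1.25, Fgf7 by 1.08 and Igf1 by 0.92. Of 12 Hedgehog genes 2 were lower, or 4 to 5 under the other scalings. As deposited these were the coreceptor Boc (-0.49) and the target Gli1 (-0.29), and the call of Gli1 was lost without replicate 2 or 3 of either group.

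The limb patterning genes that passed differed by at most 0.86 in size, the fall of Tbx5. Of 28 measured, 7 were lower and 4 higher, with 4 to 7 lower without single arrays and 7 to 13 under the other scalings. Prrx1, a factor of limb mesenchyme, rose by 0.73, Twist1 by 0.60 and Hoxd13 by 0.59, while Tbx5, a forelimb gene, fell by 0.86 at a low level of 5.12, 5.03 and 4.96 at day 14 against 5.86, 5.83 and 6.00 at day 0, and the hindlimb gene Pitx1 fell by 0.64. Of 29 axon guidance and neurotrophic genes, 10 were lower and 6 higher, with 6 to 9 lower without single arrays and 10 to 14 under the other scalings. Epha3, an ephrin receptor, was at 7.95, 8.28 and 7.92 at day 14 and at 5.36, 5.40 and 5.20 at day 0 (6.65-fold, adjusted p = 2.2e-10). Sema3c and Sema3a rose by 0.75 and 0.73, and Nrp1, their coreceptor, by 0.68.

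Among 24 hypoxia and glycolysis genes, 8 were higher and 2 lower, while 3 to 10 were higher without single arrays and 4 to 5 under the other scalings. The lactate exporter Slc16a3 rose by 1.32 and Hif1a, the oxygen-regulated factor, by 1.26, while the call of the glucose transporter Slc2a1 (0.52) was lost without day 14 replicate 2 (0.26, adjusted p = 0.267), day 0 replicate 2 (0.139) or day 0 replicate 1 (0.05). Of 14 clock genes, 6 were lower and 1 higher, led by Per1 (-0.77). Without single arrays 2 to 5 were lower, and under each of the other scalings 8. The labels do not state the time of day of sampling, and its part was not tested. Of 21 immediate early genes, 10 were lower and 2 higher, with 6 to 11 lower without single arrays and 11 to 12 under the other scalings. Nr4a2 was at 1.09, Egr3 at -0.67 and Junb at -0.58. Of 19 cell cycle inhibitors and p53 targets, 5 were higher and 5 lower, or 10 to 11 lower under the other scalings, among them Gadd45a (0.79), Ccng1 (0.77) and Mdm2 (0.52) above, and Trp63, of basal keratinocytes, and Cdkn2a below (both -0.43).

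The other genes among the 15 lowest belong to no list above. Hsp90aa1, a heat shock protein, averaged 4.54 ± 0.41 at day 14 and 6.24 ± 0.37 at day 0 (SD, n = 3 each), a difference of -1.70 at a low level. Serpina3b, a protease inhibitor, was at 10.66, 10.36 and 10.55 at day 14 and at 11.86, 12.17 and 12.21 at day 0 (-1.56). Cst6, cystatin of the outer epidermis, fell by 1.43, the detoxifying enzymes Cyp2b10 and Akr1c21 each by 1.56, and the glutathione peroxidase Gpx2 by 1.62, or by 1.13 without day 14 replicate 3, where it was lowest. Uqcc2, a mitochondrial assembly factor, was at -1.46 (adjusted p = 0.038) and did not pass without any one of the arrays except day 14 replicate 1 (adjusted p 0.0553 to 0.11).

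Few genes separated day 14 from day 7, the nearest earlier time, and hair keratin genes led them. A difference between day 14 and day 7 passed for 296 of 15928 probe sets (1.86%), with 232 of them higher (1.46%), 64 of them lower (0.402%) and 109 at least 2-fold (0.684%). By gene these were 272 of 14807 (1.84%), and 2440 genes had no overlap (16.5%). The count was 174 without day 7 replicate 2, 193 without day 7 replicate 3 and 182 without day 14 replicate 3, and the share of calls that were higher was 78.4% as deposited, 62.4% after cyclic loess, 47.5% after median centring and 60.6% after quantile normalization. Both comparisons use the day 14 arrays, so they are not independent.

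Hair genes made up the largest differences from day 7. Krtap5-4 was at 11.74, 12.34 and 12.41 at day 14 and averaged 7.00 ± 0.74 (SD, n = 3) at day 7, a difference of 5.16 ± 0.32 (limma adjusted p = 4.79e-10). All 7 other genes among the 8 highest were keratin-associated proteins as well, from Krtap26-1 at 4.84 to Krtap4-7 at 4.02. Of 15 keratin-associated proteins 14 were higher than at day 7, of 7 hair and nail keratins 6, of 7 inner root sheath keratins 7, and of 27 other hair follicle genes 13, against 1.44% of all genes. Krt32 was at 9.96, 9.99 and 10.05 at day 14 and averaged 6.13 ± 0.21 at day 7. For Krtap5-4 the level over days 0, 3, 7 and 14 was 12.23, 7.53, 7.00 and 12.17, so that the difference from day 7 had about the size of the earlier loss, and the hair keratins of the time course plot followed the same order.

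A few bone genes were also higher than at day 7. Phex averaged 9.88 ± 0.52 at day 14 and 7.24 ± 0.19 at day 7 (2.64 ± 0.26, adjusted p = 6.91e-07), and its levels on days 0, 3, 7 and 14 were 7.42, 6.88, 7.24 and 9.88. Dmp1 averaged 8.47 ± 0.44 at day 14 and 6.92 ± 0.16 at day 7 (1.55 ± 0.28, adjusted p = 0.00232). Sp7, osterix, the factor of committed osteoblasts, was higher by 1.13 (adjusted p = 0.00716), and is named here after its value was seen, as are Alpl and the osteoclast genes below. Ibsp (0.72, adjusted p = 0.412) and Alpl, alkaline phosphatase (0.79, adjusted p = 0.0694), did not pass, and Ibsp was already at 10.14 on day 3 and 11.46 on day 7. Of the 20 osteoblast genes 3 were higher than at day 7 and 0 lower, with 1 to 5 higher without single arrays, and of the 10 osteocyte genes 2 and 0.

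Some osteoclast genes were lower than at day 7. Of the 18 measured, 7 were lower, 0 higher and 11 did not pass, against 0.398% of all genes lower. The 7 became 5 to 8 without single arrays and 7 to 10 under the other alternatives, and the lower calls over all probe sets against day 7, 64 as deposited, were 18 to 122 without single arrays. Atp6v0d2 averaged 8.81 ± 0.31 at day 14 and 9.87 ± 0.21 at day 7 (-1.06 ± 0.25, adjusted p = 0.0267). Slc9b2, a sodium-proton exchanger of osteoclasts, was lower by 1.12, the fusion receptor gene Dcstamp by 0.95, the receptor Oscar by 0.94, Snx10 by 0.86, the integrin Itgb3 by 0.61 and the pump subunit Tcirg1 by 0.61. Each of them was still higher than at day 0, for example Dcstamp at 7.04 ± 0.29 at day 14 and 5.47 ± 0.14 at day 0. Mmp9 (-0.49) and Ctsk (-0.41) did not pass against day 7, and Mmp3 was lower by 1.01 (adjusted p = 0.0216) and Timp1 by 0.79 (adjusted p = 0.0406).

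Among the 8 lowest genes against day 7, the largest difference was that of Idi2. Idi2, an isoprenoid enzyme, was lower by 2.15, the glutathione transferase Gsta4 by 2.11, Epyc, epiphycan of cartilage, by 1.60, the protease inhibitor Slpi by 1.49 and the alarmin Il33 by 1.18. Tmprss11b, an epithelial protease, was at 7.76, 8.10 and 5.37 at day 14, and its difference of -1.65 (adjusted p = 0.0489) was -0.80 without day 14 replicate 3 (adjusted p = 0.131). The calls of Dsc2, a desmosome cadherin (-1.26), and of the retinoic acid enzyme Aldh1a2 (-1.23) were also lost without that replicate, with adjusted p of 0.08 and 0.0524, and so were Epyc (0.0532) and Slpi (0.0684). None of these 5 genes passed without day 7 replicate 3, where adjusted p ran from 0.0534 to 0.155.

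Against day 3, the digits at day 14 held less RNA for myeloid inflammation and more for hair and matrix, as deposited. The test passed for 4985 of 15928 probe sets (31.3%), of which 3826 were higher (24.0%), 1159 lower (7.28%) and 636 at least 2-fold (3.99%), 407 of these higher (2.56%) and 229 lower (1.44%). By gene these were 4651 (31.4%), and 5632 genes had no overlap (38.0%). The median difference of all probe sets was 0.09 as deposited, -0.02 after cyclic loess, -0.14 after median centring and -0.01 after quantile normalization, and the share of calls that were higher was 76.8%, 49.9%, 28.7% and 50.5% in the same order, so the split by direction depends on the scaling. Chil3, a secreted lectin of activated macrophages, averaged 4.87 ± 0.05 at day 14 and 9.04 ± 0.74 at day 3 (-4.17, adjusted p = 1.23e-08). Ccl3 was lower by 3.26, Cxcl2 by 3.28, Trem1 by 3.31 and Saa3 by 2.70, and each of these 4 was still above its day 0 level. Of 29 macrophage genes 18 were lower than at day 3, against 7.00% of all genes, and of 37 cytokines and chemokines 17. C1qtnf3 was higher by 4.21 and Krt32 by 4.01, and of 20 osteoblast and bone matrix genes 18 were higher than at day 3, against 24.4% of all genes. Such shares were not particular to bone, since 82.8% of resting stroma, 67.9% of Wnt and 64.3% of clock genes were also higher. These list counts against day 3 are as deposited, and their change with the scaling was not tested.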

How the data were processed

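Total RNA of 24 digit samples was hybridised to Affymetrix exon arrays, 3 arrays in each of 8 groups of strain and day. Per the submitters' processing notes, the authors used RMA in Affymetrix Expression Console with the mm8 genome build. What the authors deposited is 1 linear intensity for each probe set and array. The step that made RMA output linear was not given in the sources used here, and array medians differ, so they do not share 1 distribution.

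The table held 16661 probe sets. Gene symbols came from the platform annotation: 14939 probe sets had 1 symbol and 989 several, 15928 in all, and these were tested. By Entrez identifier, 14884 matched the RefSeq gene table of GRCm38.p6. Lists and named genes use 1 probe set per gene, the one with the highest mean. Values were turned to log2 and fitted in R 4.3.3 by the lmFit and eBayes functions of limma 3.58.1 (1 mean per group, 16 residual and 4.62 prior degrees of freedom). B6 day 14 was contrasted with days 0, 7 and 3, with two-sided p-values adjusted by Benjamini-Hochberg at a threshold of 0.05. An exact permutation of 3 against 3 arrays has a smallest p of 0.1, and the number of arrays limits the precision. No depth applies to arrays. The replicates are labelled biological.

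Named genes are the 15 highest and 15 lowest against day 0 that passed without overlap, the 8 highest and lowest against days 7 and 3, up to 5 members that passed and 2 that did not in each of 46 lists (988 of 1243 entries measured), and all keratins, without predicted genes. Members and lists were chosen with earlier results of these data known. The fit was tested on simulated data. Same-numbered arrays of day 14 and day 0 had residual correlations of -0.122, -0.112 and 0.057, and differently numbered ones of -0.072 to 0.187. The deviations within a group of 3 arrays are linked, so these few values cannot decide whether the numbers pair the arrays. No pairing was used in the main fit. Alternatives were 3 scalings (cyclic loess, median centring, quantile), a filter leaving out the lower 25% of probe sets by level, log2(value + 16), fits of the compared arrays or the 12 B6 arrays alone, array weights, an intensity trend, a replicate block and leaving out each array.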

Additional observations from a re-analysis of the deposited data

How the results depend on the processing

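Against day 0, the number of probe sets called (5890), higher (3624), lower (2266) and changed at least 2-fold (645) stayed within 1.5 times in every alternative except the lower calls under median centring (4008) and quantile normalization (4132). Leaving out single arrays gave 4618 to 5197 called, 2941 to 3429 higher, 1525 to 1864 lower and 548 to 756 at least 2-fold. Against day 7, where 296 were called, 232 higher and 64 lower, 460 were called and 173 lower after cyclic loess, 478 and 251 after median centring, 557 and 211 with array weights, and 159 called, 135 higher and 24 lower when only the 6 compared arrays were fitted. Quantile normalization gave 173 lower and the fit of the 12 B6 arrays 41 lower. Leaving out single arrays gave 174 to 293 called, 145 to 198 higher, 18 to 122 lower and 95 to 119 at least 2-fold. Against day 3, with 3826 higher and 1159 lower, there were 2240 and 2249 after cyclic loess, 1804 and 4472 after median centring, and 2272 and 2231 after quantile normalization, and 768 lower without the dim probe sets. Leaving out single arrays gave 3637 to 5369 called, 2737 to 4283 higher, 900 to 1123 lower and 613 to 707 at least 2-fold. The cause of these moves was not tested, beyond the fewer arrays or probe sets in some fits. Elovl5 changed sign, from 0.03 to -0.18 after cyclic loess (adjusted p = 0.0269). The replicate block gave 5723 called against day 0, 290 against day 7 and 4832 against day 3, and the replicate numbers mark no known pairing.

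The 3 arrays per group limit every value, and no background level is known. Among genes of the naming rule that the text does not describe, those whose call against day 0 was lost without some single array were Krt12, Krt222, Clu, Masp1, Cd79b, Mrgprb2, Hlf, Nfil3, Slc2a3 and Sprr2b.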
